A study of Saccharomyces cerevisiae with 12 samples.

Results

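The comparison described here asks which yeast genes changed differently between 1 h and 3 h after a medium switch in a strain without CHO2 than in wild type. For every gene the log2 change from 1 h to 3 h was taken in each strain, and the wild-type change was subtracted from the mutant change. This difference of changes, called the interaction, is above 0 where the gene gained more, or lost less, in the mutant. It rests on 8 of the 12 libraries of the series, 2 for each strain and time, and was computed for 6546 of the 6685 listed genes, those with a value of at least 10 in 2 or more libraries.

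Both strains were CEN.PK, MAT a, and grew in YPL, which holds yeast extract, peptone and lactate, the latter as carbon source. At an A600 of 1.0 the cells were washed and moved to SL, a minimal lactate medium with yeast nitrogen base and ammonium sulfate but no amino acids. The 4 groups are wild type (WT) after 1 h and 3 h in SL, and the mutant, labelled cho2 and carrying a KanMX cassette in place of CHO2, after the same times. Unswitched cells were sampled before the switch only, so hours in SL, growth and use of the medium cannot be told apart. The series calls each pair biological replicates without saying that they came from separate cultures, so p-values may measure technical spread only.

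CHO2 encodes the enzyme that puts the first methyl group on phosphatidylethanolamine on its way to phosphatidylcholine, taking it from S-adenosylmethionine (SAM). In budding yeast SAM is made from methionine, and the sulfur genes that supply methionine are switched on by the activator Met4 when sulfur amino acids run short and switched off when cysteine or SAM build up. On lactate, cells make glucose phosphates by gluconeogenesis, whose genes are repressed by glucose. Yeast has its enzymes for the oxidation of fatty acids in peroxisomes. Serine and glycine feed one-carbon units, carried on folate, into purine and methionine synthesis.

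The values are normalised read counts, and differences are on the scale of log2(value + 1). The 8 SL libraries held 3.17 M to 12.5 M recovered reads (M for mega), the lowest in the second WT library at 3 h. One library stands apart in its scaling, the second of cho2 at 3 h: its median gene was -0.34 (log2) relative to the mean over all 12, where the other libraries gave -0.07 to 0.17. Below, libraries are called by strain, time and number, such as WT 3 h library 2. CHO2 itself was read at 4065 and 3129 in WT at 1 h and 2505 and 2012 at 3 h, against 4.77 and 9.19 at 1 h and 3.99 and 6.13 at 3 h in cho2, where 4 to 12 reads remained. Of the 6 MAT a marker genes none was at 0 in SL, and their summed level was 4487 to 4531 in WT at 1 h, 3365 to 4040.4 in WT at 3 h, 3926 to 4135 in cho2 at 1 h and 3578 to 5462 in cho2 at 3 h. Of the 4 MAT alpha marker genes, MF(ALPHA)1 lay at 5.13 to 34.9 in SL, but STE3 lay at 147 to 339 and SAG1 at 436 to 1023. Their part in the results was not tested. The values are read counts scaled per library, from poly-A RNA of whole samples and not of single cells. Fewer cells with a transcript and less of it per cell therefore cannot be told apart.

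Limma called 138 of the 6546 genes for the interaction at a Benjamini-Hochberg adjusted p under 0.05, which is 2.11% of those tested. Of these, 44 (0.672%) had changed upward in cho2 relative to WT and 94 (1.44%) downward, and 901 genes had an unadjusted p under 0.05. Counts of called genes in the lists below should be read against these shares of all genes tested. The called interactions had a size of 0.87 to 3.73 with a median of 1.23 and a median SE of 0.26. In all 138, each of the 4 pairings of a 3 h with a 1 h library in cho2 lay beyond all 4 pairings in WT, a separation found in 23.6% of all genes tested. The pairings use the libraries that made the calls, so this describes the called genes and adds no separate evidence. The largest positive value, 3.73, belongs to YBR190W, a reading frame whose group means stay under 50. Within the strains limma called 2397 genes between the times in WT (36.6%; 726 rose, 11.1%, and 1671 fell, 25.5%). In cho2 it called 2078 (31.7%; 523 rose, 7.99%, and 1555 fell, 23.8%). Across the 6546 genes the changes of the strains correlated with r = 0.76, a description over genes, which are not independent replicates. The median gene changed by -0.21 in WT and -0.16 in cho2, which TMM scaling moved to -0.02 and 0.03, so a change of a single strain should be read against these medians. The median interaction was -0.01 with either scaling, but -0.20 without cho2 3 h library 1 and 0.18 without cho2 3 h library 2. Medians of gene lists in fits without these libraries should be read against these values.

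**Figure D1:**
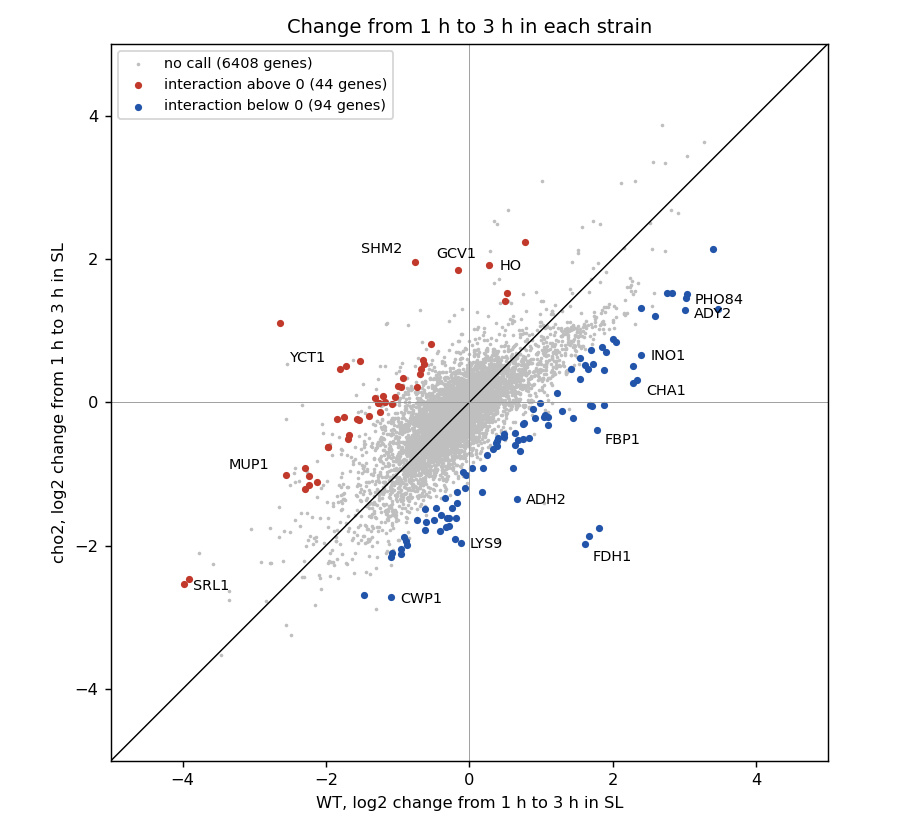
Log2 change from 1 h to 3 h in SL in WT (horizontal axis) and in cho2 (vertical axis), 1 point per gene for the 6546 genes tested. The line marks equal changes, red points are the 44 genes called above it and blue points the 94 genes called below it, with FDH1 at 1.61 in WT and -1.98 in cho2 and SHM2 at -0.76 and 1.96.

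The 44 genes above 0 mostly fell in WT: 24 fell in WT with no call in cho2, 12 fell in both strains, 3 fell in WT and rose in cho2, 3 rose in both, and 2 rose in cho2 alone among the calls. Their median change was -1.29 in WT and 0.03 in cho2. The 94 genes below 0 were spread more widely: 24 fell in cho2 with no call in WT, 23 rose in WT with no call in cho2, 20 rose in both, 15 fell in both, and 12 rose in WT and fell in cho2. Their median change was 0.69 in WT and -0.51 in cho2.

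The strains stood apart at 1 h in most of the called genes. Read from the same libraries, the cho2 minus WT difference was called at 1 h in 96 of the 138 genes and at 3 h in 44, against 9.23% (3.64% above WT, 5.59% below) and 3.44% (0.611% above, 2.83% below) of all genes tested. At 1 h alone it was called in 80, at 3 h alone in 28, at both times in 16 and at neither in 14. Of the 94 genes below 0, 55 stood above WT at 1 h with no call at 3 h, 23 stood below WT at 3 h with no call at 1 h, and 7 crossed from a call above to a call below. Of the 44 above 0, 25 stood below WT at 1 h only, 5 stood above WT at 3 h only, and 2 crossed. The median strain difference was -1.18 at 1 h and 0.16 at 3 h in the 44 genes, and 0.74 and -0.51 in the 94. These counts describe the called genes and share the libraries that chose them.

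The 2 formate dehydrogenase genes with an overlapping frame, followed by SHM2 of one-carbon metabolism, had the widest interactions among the called genes with a group mean of at least 50. FDH1, whose enzyme oxidises formate to carbon dioxide, was read at 3897 and 4364 in WT at 1 h and 14440.1 and 11052 at 3 h, and at 34273 and 36399.6 at 1 h and 10257 and 7789 at 3 h in cho2. It rose in WT and fell in cho2, with no overlap of the strains at 1 h and both cho2 libraries below both WT libraries at 3 h. The interaction was -3.60 ± 0.27 (limma adjusted p = 9.96e-09). FDH2 gave -3.54 ± 0.27 and the overlapping frame YPL276W, chosen after its values were seen, -3.57 ± 0.29. FDH1 and FDH2 are near-identical copies, so reads of one may be counted on the other, and the 3 values are not independent.

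SHM2, for the cytosolic serine hydroxymethyltransferase that puts the carbon of serine onto folate, moved the other way. It was read at 9298 and 8163 in WT at 1 h and 5706 and 4667 at 3 h, against 717 and 755 at 1 h and 3159 and 2600.3 at 3 h in cho2. The cho2 libraries rose and the WT libraries fell, yet every cho2 library stayed below every WT library. The interaction was 2.72 ± 0.24 (limma adjusted p = 1.08e-07). GCV1, for the aminomethyltransferase of the mitochondrial glycine cleavage system, stood at 6488 and 5884 in WT at 1 h and 5391 and 5701 at 3 h. In cho2 it went from 1402 and 1358 to 5741 and 4273, a range that overlaps WT at 3 h. The interaction was 2.00 ± 0.25 (limma adjusted p = 3.01e-05) with a change of -0.16 in WT and 1.84 in cho2. GCV2, for the glycine dehydrogenase of the same system, fell in WT from 6796 and 6611 to 4269 and 4342 and rose in cho2 from 1828 and 1872 to 3255 and 2401, with an interaction of 1.23 ± 0.24 (limma adjusted p = 0.0045). Of 15 genes for one-carbon metabolism and glycine cleavage, these 3 passed upward (20%, against 0.672% of all genes tested) and 0 downward. The list median was 0.28 beside -0.01 for all genes. Without cho2 3 h library 1 these medians were 0.09 and -0.20, without cho2 3 h library 2 0.47 and 0.18, and without WT 1 h library 2 0.17 and -0.04.

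Purine synthesis takes up carbon carried on folate. Of its 14 genes 1 passed (7.14%, against 2.11% of all genes tested). This was ADE17, for the last steps to inosine monophosphate, with an interaction of 1.35 ± 0.28 (limma adjusted p = 0.0085). It was read at 11852 and 10981 in WT at 1 h and 9236 and 6701 at 3 h, and at 2838 and 2924 at 1 h and 5879 and 4341 at 3 h in cho2, where both times stayed below WT. Its call ended without cho2 3 h library 1 (1.13) or WT 3 h library 2 (1.12). The median of the purine list was 0.18 and ranged from -0.03 (without WT 3 h library 2) to 0.37 (without WT 3 h library 1) when single libraries were left out.

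**Figure D2:**
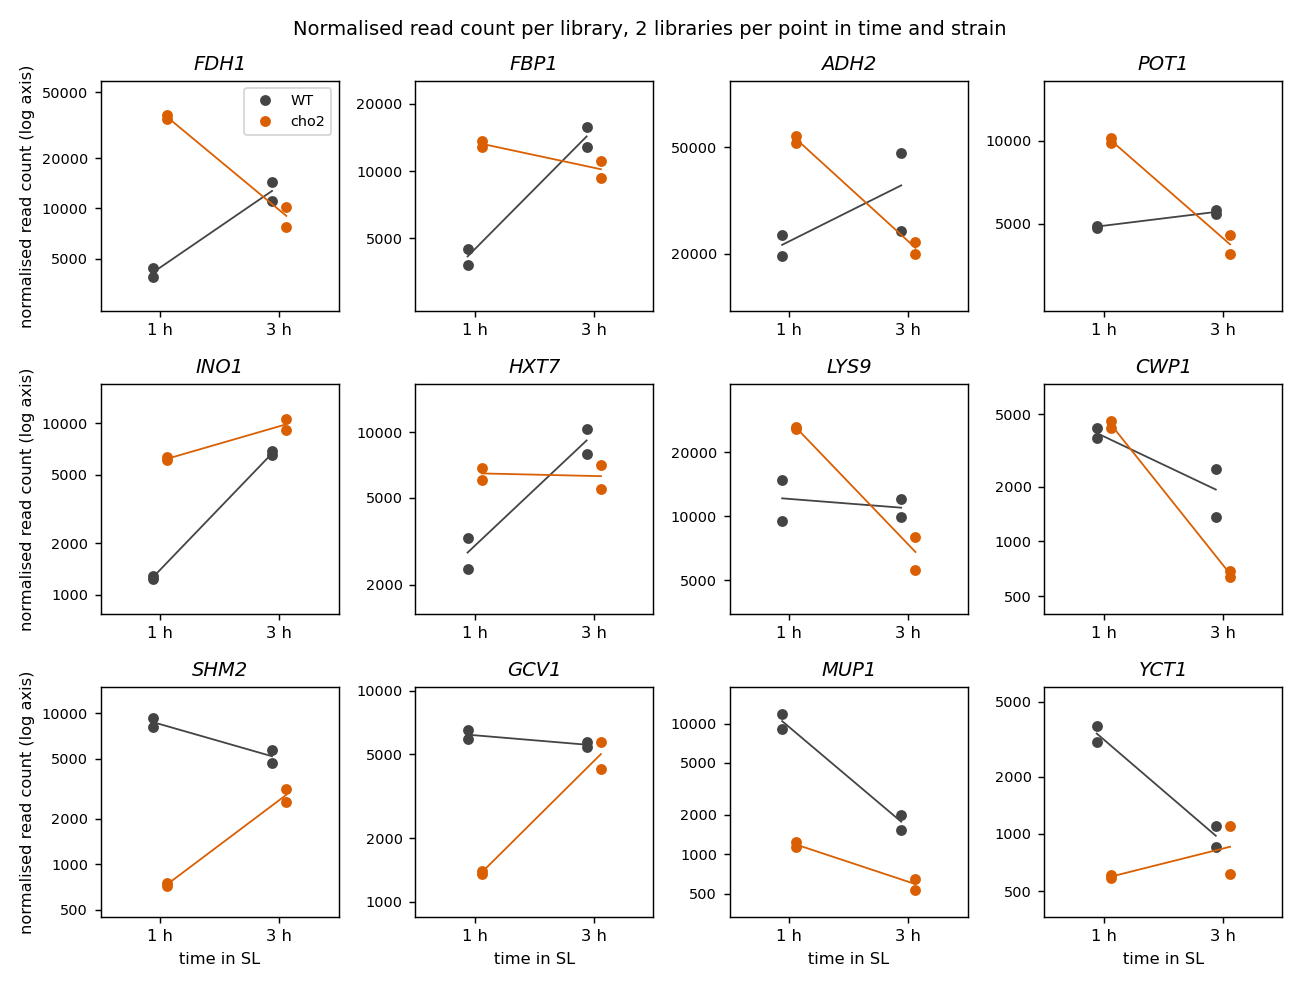
Normalised read count (log axis) of 12 genes at 1 h and 3 h in SL, 1 point per library, with lines joining the means of 2 libraries. In the upper 2 rows cho2 (orange) lost more or gained less than WT (grey), as for FDH1 with an interaction of -3.60. In the lowest row cho2 gained more or lost less, as for SHM2 with 2.72.

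Of the genes for the uptake and scavenging of sulfur compounds, 5 lost less in cho2 than in WT, or lost in WT alone. The list has 12 genes, of which 11 could be tested, SEO1 being too low, and 0 passed downward. The 5 called upward are 45.5% of the 11, against 0.672% of all genes tested. The list median was -1.80 for the change in WT, -1.01 for the change in cho2 and 0.78 for the interaction, and 0.64 to 1.07 when single libraries were left out. Without WT 1 h library 1, WT 3 h library 2 or either cho2 1 h library 3 of the genes passed. YCT1, a cysteine transporter, was read at 3720.3 and 3060.2 in WT at 1 h and 1106 and 852 at 3 h. In cho2 it stood at 585 and 607 at 1 h and 1101 and 612 at 3 h, so the strains were apart at 1 h and overlapped at 3 h. The interaction was 2.26 ± 0.31 (limma adjusted p = 0.000106). SOA1, for a transporter of sulfonates and other sulfur compounds of the same protein family, fell from 974 and 947 to 265 and 271 in WT and stood at 361 and 349 at 1 h and 375 and 243 at 3 h in cho2, with an interaction of 1.61 ± 0.28 (limma adjusted p = 0.0015).

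MUP1, the high-affinity methionine permease, fell in both strains. It went from 11839 and 9007 to 2006 and 1547 in WT and from 1135 and 1236 to 651 and 533 in cho2, every cho2 library below every WT library. The interaction of 1.54 ± 0.25 (limma adjusted p = 0.000882) is thus a smaller loss from a lower start. The low-affinity permease MUP3 and the S-methylmethionine permease MMP1, both chosen after their values were seen, gave 1.20 ± 0.27 and 1.02 ± 0.23 (limma adjusted p = 0.0134 and 0.0177). The call of MUP3 ended without WT 1 h library 1 (1.13), cho2 1 h library 1 (1.20), WT 3 h library 2 (0.95) or cho2 1 h library 2 (1.21). The call of MMP1 ended without WT 1 h library 1 (0.96), cho2 1 h library 1 (0.95), WT 3 h library 2 (0.85) or cho2 1 h library 2 (1.09). YOL162W and YOL163W, neighbouring frames that encode proteins of the same family as YCT1 and SOA1 and were also chosen after their values were seen, gave 2.10 ± 0.38 and 2.23 ± 0.32.

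The enzymes of sulfate assimilation had a median change of -1.98 in WT and -1.46 in cho2. The median interaction of these 10 genes was 0.62, and 0 passed limma. It was 0.35 without cho2 3 h library 1, beside -0.20 for all genes, and 0.85 without cho2 3 h library 2, beside 0.18. An unadjusted p under 0.05 was found for 6, and 0 passed in edgeR with the deposited scaling, 4 in DESeq2 and 3 in limma with TMM scaling. MET3, for ATP sulfurylase, fell from 61704 and 63809 to 13338 and 15089.6 in WT and from 24668 and 24245 to 7509.8 and 5442 in cho2, with an interaction of 0.21 ± 0.26 (limma adjusted p = 0.814). The adenylylsulfate kinase gene MET14 gave 0.48 ± 0.27, the reductase gene MET16 0.64 ± 0.29 and the sulfite reductase gene MET5 0.67 ± 0.25, all 3 named after their values were seen and none passing. MET17, for homocysteine synthase, overlaps YLR302C and gave 0.11 ± 0.27, and MET6, for the methionine synthase, gave 0.46 ± 0.24 (limma adjusted p = 0.921 and 0.432). Of the 10 genes for homocysteine and methionine synthesis 1 passed (10%, against 2.11% of all genes), STR3, for cystathionine beta-lyase. STR3 fell from 5439.9 and 5344 to 989 and 1234 in WT and from 1385 and 1365 to 774 and 682 in cho2, with an interaction of 1.37 ± 0.25 (limma adjusted p = 0.00241).

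Downstream of methionine, 2 of the 7 genes of SAM synthesis and its cycle passed upward (28.6%, against 0.672% of all genes). SAM1, for a SAM synthetase, fell from 10093 and 9425 to 2339 and 1821 in WT and from 1929 and 2073 to 1098 and 742 in cho2, with an interaction of 1.09 ± 0.26 (limma adjusted p = 0.0222). Its paralog SAM2 gave 0.49 ± 0.26 and SAH1, for the hydrolase that clears S-adenosylhomocysteine, -0.26 ± 0.24, neither passing. The SAM permease gene SAM3 gave 1.34 ± 0.32 (limma adjusted p = 0.0256). The call of SAM1 ended without WT 1 h library 1 (1.04), cho2 1 h library 1 (1.04), WT 3 h library 2 (0.91) or cho2 1 h library 2 (1.15). The call of SAM3 ended without WT 1 h library 1 (1.01), cho2 1 h library 1 (1.29), cho2 3 h library 1 (1.33), WT 3 h library 2 (0.96), cho2 1 h library 2 (1.40) or cho2 3 h library 2 (1.36), and with TMM scaling (adjusted p = 0.0744). Of 12 transsulfuration and glutathione genes 0 passed limma. At an unadjusted p under 0.05 there were 6, with 0 in edgeR with the deposited scaling, and 3 upward and 1 downward in DESeq2. CYS3 and CYS4, for the enzymes between homocysteine and cysteine, gave 0.60 ± 0.24 and 0.65 ± 0.28, and CYS4 passed without cho2 3 h library 2 (0.99) and in DESeq2 (0.65). Among 6 regulators of sulfur genes 1 passed (16.7%, against 2.11% of all genes). This was MET31, for a zinc finger factor that recruits Met4, with 1.27 ± 0.30 (limma adjusted p = 0.0217). Its call ended without WT 1 h library 1 (1.04), WT 3 h library 1 (1.06), cho2 1 h library 1 (1.36) or cho2 1 h library 2 (1.17).

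Of 15 genes of lactate use and gluconeogenesis 7 passed downward (46.7%, against 1.44% of all genes) and 0 upward. The median change over the list was 0.90 in WT and -0.21 in cho2, and the median interaction was -0.73, with a range of -0.94 to -0.67 when single libraries were left out. FBP1, for fructose-1,6-bisphosphatase, was read at 4496 and 3794 in WT at 1 h and 15811 and 12768 at 3 h, against 12789.9 and 13686 at 1 h and 11065 and 9308 at 3 h in cho2. At 1 h both cho2 libraries lay above both WT libraries, and at 3 h both lay below them. The interaction was -2.16 ± 0.24 (limma adjusted p = 6.4e-06). PCK1, for phosphoenolpyruvate carboxykinase, rose from 18437 and 17275 to 34018 and 42838 in WT and stood at 32830.2 and 34343 at 1 h and 28391 and 25515 at 3 h in cho2, with an interaction of -1.42 ± 0.25. MDH2, for the cytosolic malate dehydrogenase, gave -1.41 ± 0.24, and ICL1, for isocitrate lyase of the glyoxylate cycle, -1.31 ± 0.25, while ACS1, for an acetyl-CoA synthetase, gave -1.14 ± 0.25. PCK1, ICL1 and ACS1 were named after their values were seen, and the call of ACS1 ended without WT 1 h library 1 (-1.01) or cho2 1 h library 2 (-1.05).

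Transporters of the same list include ADY2, for an acetate transporter. It rose in both strains, from 5285 and 5631 to 46035 and 41869.7 in WT and from 21531 and 23982 to 53241 and 57580.1 in cho2, where both times lay above WT. The interaction was -1.72 ± 0.29 (limma adjusted p = 0.000997). JEN1, the lactate permease, rose from 9297 and 8593 to 29768 and 29601 in WT and from 18026 and 20169.5 to 27154 and 28197 in cho2. The strains were apart at 1 h, and at 3 h both cho2 libraries lay just below both WT libraries. Its interaction was -1.19 ± 0.24 (limma adjusted p = 0.00621), and its call ended without cho2 1 h library 2 (-1.11). ATO3, a relative of ADY2 named after its values were seen, gave -1.65 ± 0.23.

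Among glycolysis and fermentation genes 2 of 27 passed downward (7.41%, against 1.44% of all genes). ADH2, for the alcohol dehydrogenase that oxidises ethanol, was read at 23529 and 19591 in WT at 1 h and 47546 and 24364 at 3 h, with the WT libraries at 3 h far from each other. In cho2 it fell from 51712 and 55142 to 21999.6 and 20009, and the interaction was -2.01 ± 0.32 (limma adjusted p = 0.000638). ALD4, for the mitochondrial aldehyde dehydrogenase, gave -1.31 ± 0.24, with -0.31 in WT and -1.62 in cho2. Of 8 hexose transporter genes 3 passed downward (37.5%). HXT2 rose from 2622 and 1678 to 12082 and 8662 in WT and went from 3916 and 4306 to 6687 and 5126 in cho2, with an interaction of -1.77 ± 0.29. HXT7 and HXT6, which are near-identical and may share reads, gave -1.76 ± 0.27 and -1.72 ± 0.28. Genes for other sugars, named after their values were seen, moved likewise, with -1.44 ± 0.25 for the maltose permease MAL11 and -1.26 ± 0.26 for the invertase SUC2. The call of SUC2 ended without cho2 1 h library 2 (-1.21).

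All 15 genes of peroxisomal beta-oxidation had a negative interaction, and 4 of them passed (26.7%, against 1.44% of all genes). An unadjusted p under 0.05 was found for 13. The list median was -0.78 (-0.93 to -0.54 when single libraries were left out), and the median strain difference went from 0.45 at 1 h to -0.34 at 3 h. POT1, for the thiolase of the last step, was read at 4853 and 4934 in WT at 1 h and 5424 and 5630.1 at 3 h. In cho2 it fell from 10243 and 9765 to 4545 and 3897, which put both cho2 libraries above WT at 1 h and below WT at 3 h. The interaction was -1.42 ± 0.23 (limma adjusted p = 0.000882). SPS19, for the reductase of unsaturated intermediates, gave -1.34 ± 0.24, with -0.28 in WT and -1.61 in cho2. CTA1, for the peroxisomal catalase, gave -1.14 ± 0.26 and TES1, a thioesterase named after its values were seen, -0.96 ± 0.25. The call of CTA1 ended without WT 1 h library 1 (-0.99), cho2 1 h library 1 (-1.16), cho2 1 h library 2 (-1.12) or cho2 3 h library 2 (-0.95). The call of TES1 ended without WT 1 h library 1 (-0.80), WT 3 h library 1 (-0.85), cho2 1 h library 1 (-1.09), cho2 3 h library 1 (-0.91) or cho2 1 h library 2 (-0.83), and with TMM scaling (adjusted p = 0.0501). The number of members passing ranged from 2 to 9 when single libraries were left out, with 9 in the absence of cho2 3 h library 1. FAA4, for an acyl-CoA synthetase, gave -0.95 ± 0.23. It was 1 of 12 genes on the fatty acid synthesis list to pass (8.33%, against 2.11% of all genes). Its call ended without WT 1 h library 1 (-0.98), WT 3 h library 1 (-0.91) or cho2 1 h library 1 (-0.996). It also ended without WT 1 h library 2 (-0.92) or cho2 1 h library 2 (-0.90).

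INO1, for inositol-3-phosphate synthase and a target of repression when phosphatidic acid runs low, rose in both strains. It was read at 1236 and 1289 in WT at 1 h and 6859.6 and 6505 at 3 h, and at 6338 and 6103 at 1 h and 10613 and 9172 at 3 h in cho2. Both cho2 libraries were above both WT libraries at each time, and the gap narrowed, with an interaction of -1.74 ± 0.22 (limma adjusted p = 5.22e-05). Of 8 inositol genes it alone passed (12.5%, against 2.11% of all genes). The list median was -0.04 (-0.18 to 0.13 when single libraries were left out, beside -0.20 to 0.18 for all genes). Of 14 genes of phosphatidylcholine synthesis, CHO2 included, 0 passed limma and 3 had an unadjusted p under 0.05, while edgeR with the deposited scaling called 0, and 1 passed upward in DESeq2 and in limma with TMM scaling. OPI3, for the methyltransferase after Cho2, gave -0.53 ± 0.22 and CHO1, for phosphatidylserine synthase, 0.29 ± 0.26 (limma adjusted p = 0.282 and 0.725).

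Lysine synthesis held most of the calls among the other amino acids. Of 55 genes for amino acids without sulfur 6 passed downward (10.9%, against 1.44% of all genes), 5 of them for lysine, and 0 upward. LYS9, for the saccharopine dehydrogenase that forms saccharopine, was read at 14844 and 9484 in WT at 1 h and 12102 and 9887 at 3 h. In cho2 it fell from 26226 and 25913 to 8026 and 5574, above WT at 1 h and below it at 3 h, with an interaction of -1.85 ± 0.28 (limma adjusted p = 0.000549). LYS4, for homoaconitase, gave -1.24 ± 0.25 and LYS20, for homocitrate synthase, -1.18 ± 0.25. LYS1 and LYS21 gave -1.06 ± 0.24 and -0.87 ± 0.22, and GLN1, for glutamine synthetase, -1.09 ± 0.26, all 3 named after their values were seen. The call of LYS20 ended without cho2 1 h library 1 (-1.17), WT 1 h library 2 (-0.95) or cho2 1 h library 2 (-1.19). That of LYS1 ended without WT 3 h library 1 (-0.93), WT 1 h library 2 (-0.95) or cho2 1 h library 2 (-0.95). That of LYS21 ended without WT 3 h library 1 (-0.81), cho2 1 h library 1 (-0.88), WT 1 h library 2 (-0.75), WT 3 h library 2 (-0.93) or cho2 1 h library 2 (-0.86). That of GLN1 ended without WT 1 h library 1 (-1.09), WT 3 h library 1 (-1.02), cho2 1 h library 1 (-1.12), WT 1 h library 2 (-1.10) or cho2 1 h library 2 (-1.06).

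Some genes for using other nitrogen sources also passed. CHA1, for the deaminase of serine and threonine, was read at 43.4 and 46.2 in WT at 1 h and 231 and 231 at 3 h, against 31.5 and 42.9 at 1 h and 45.9 and 45.6 at 3 h in cho2. It rose in WT, while in cho2 both libraries at 3 h lay just above both at 1 h and the change of 0.31 did not pass, with an interaction of -2.03 ± 0.33 (limma adjusted p = 0.000882). Of 12 genes of amino acid breakdown it alone passed (8.33%, against 2.11% of all genes), and 7 had an unadjusted p under 0.05. Of 23 genes under nitrogen catabolite repression 2 passed downward (8.70%, against 1.44% of all genes). These were the proline permease gene PUT4 with -1.14 ± 0.24 and CAR2, for ornithine aminotransferase, with -1.17 ± 0.27. The call of PUT4 ended without cho2 1 h library 2 (-0.99). That of CAR2 ended without WT 1 h library 1 (-0.90), WT 3 h library 1 (-1.09), cho2 1 h library 1 (-1.26), cho2 1 h library 2 (-1.07) or cho2 3 h library 2 (-1.03). GAP1, the general amino acid permease, gave 0.06 ± 0.25.

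Of 137 cytosolic ribosomal protein genes 134 had a negative interaction, but 7 passed, all of them downward (5.11%, against 1.44% of all genes). An unadjusted p under 0.05 was found for 71. The median change was 1.15 in WT and 0.64 in cho2, and the median interaction was -0.57. RPS15 was read at 845 and 949 in WT at 1 h and 1222 and 1578 at 3 h, and at 1596 and 1438 at 1 h and 1068 and 940.1 at 3 h in cho2, with an interaction of -1.23 ± 0.25 (limma adjusted p = 0.00621). RPL2A, which has a near-identical copy in RPL2B, gave -1.10 ± 0.24, and the stalk protein gene RPP2A -1.25 ± 0.29. The call of RPS15 ended without cho2 1 h library 1 (-1.15). That of RPL2A ended without cho2 1 h library 1 (-1.05), WT 1 h library 2 (-0.89), WT 3 h library 2 (-1.03) or cho2 1 h library 2 (-1.14). That of RPP2A ended without WT 3 h library 1 (-1.05), cho2 1 h library 1 (-1.25), WT 1 h library 2 (-0.90), cho2 1 h library 2 (-1.26) or cho2 3 h library 2 (-1.26). RPP0, for the stalk base, gave -0.96 ± 0.25 and was named after its values were seen, with a call that ended without WT 3 h library 1 (-0.82), cho2 1 h library 1 (-0.92), WT 1 h library 2 (-0.80), cho2 1 h library 2 (-0.99) or cho2 3 h library 2 (-0.93). The number passing was 20 in limma with TMM scaling, 3 in edgeR with the deposited scaling, 15 in edgeR with TMM and 37 in DESeq2. It also depended strongly on single libraries being left out. The list median was -0.31 without WT 1 h library 2 and -0.82 without WT 1 h library 1.

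Of 91 ribosome biogenesis genes 3 passed downward (3.30%, against 1.44% of all genes). In 88 the interaction was negative. The list median was -0.49, beside -0.01 for all genes. Without cho2 3 h library 1 these medians were -0.82 and -0.20, and without cho2 3 h library 2 -0.24 and 0.18. NOP1, for the methyltransferase of ribosomal RNA called fibrillarin, rose from 348 and 289.8 to 1134 and 886 in WT and from 447 and 487 to 701 and 594 in cho2, with an interaction of -1.19 ± 0.25 (limma adjusted p = 0.00836). NSR1 and NOP58, for nucleolar proteins of early ribosome assembly, gave -1.23 ± 0.27 and -1.08 ± 0.29. The call of NOP1 ended without WT 1 h library 2 (-1.06) or cho2 1 h library 2 (-1.13). That of NSR1 ended without WT 3 h library 1 (-1.04), cho2 1 h library 2 (-1.15) or cho2 3 h library 2 (-0.95). That of NOP58 ended without WT 3 h library 1 (-0.94), cho2 1 h library 1 (-1.05), WT 1 h library 2 (-0.78), cho2 1 h library 2 (-1.11) or cho2 3 h library 2 (-0.81). TMM scaling gave 14 calls, and leaving out single libraries 0 (cho2 1 h library 2) to 41 (cho2 3 h library 1). Of 33 proteasome genes 31 had a negative interaction, and 11 had an unadjusted p under 0.05. The list median was -0.43, and DESeq2 called 10 downward where edgeR with the deposited scaling called 1. In limma 1 of the 33 passed, downward (3.03%, against 1.44% of all genes). This was RPN10, for a ubiquitin receptor of the proteasome, with -1.01 ± 0.22. Its call ended without WT 1 h library 1 (-0.98) or cho2 1 h library 1 (-0.95). It also ended without WT 3 h library 2 (-0.94) or cho2 1 h library 2 (-1.07). The median interaction over 72 mitochondrial ribosomal protein genes was 0.15, beside -0.01 for all genes. Without cho2 3 h library 1 these medians were -0.12 and -0.20, and without cho2 3 h library 2 0.35 and 0.18. With all libraries 0 of the 72 passed in limma, in edgeR with the deposited scaling and in DESeq2, and 1 had an unadjusted p under 0.05.

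Respiratory genes gave single calls. Of 36 genes of the respiratory chain and ATP synthase 33 had a positive interaction and the median was 0.35, beside -0.01 for all genes. Without cho2 3 h library 1 these medians were 0.15 and -0.20. Of the 36, 1 passed upward and 1 downward, together 5.56%, against 2.11% of all genes. QCR8, of the cytochrome bc1 complex, gave 1.18 ± 0.31, and NDE2, for an external NADH dehydrogenase, -0.99 ± 0.25. The call of QCR8 ended without WT 1 h library 1 (1.05), cho2 1 h library 1 (1.22), cho2 3 h library 1 (1.29), WT 3 h library 2 (0.77), cho2 1 h library 2 (1.13) or cho2 3 h library 2 (1.06), and with TMM scaling (adjusted p = 0.102). That of NDE2 ended without WT 1 h library 1 (-0.75), WT 3 h library 1 (-1.01), cho2 1 h library 1 (-0.998), WT 3 h library 2 (-0.97), cho2 1 h library 2 (-0.99) or cho2 3 h library 2 (-0.87). IDH2, for a subunit of isocitrate dehydrogenase, was 1 of 21 genes of the citrate cycle to pass (4.76%, against 2.11% of all genes). It fell from 9958 and 9832 to 3003 and 3123 in WT and from 3928 and 4300.1 to 3150.2 and 2647 in cho2. Its interaction was 1.18 ± 0.23 (limma adjusted p = 0.00456), and its call ended without cho2 1 h library 1 (1.12). SDH9, for a paralog of the flavoprotein of succinate dehydrogenase, moved the other way, from 707 and 761 to 3969 and 3231 in WT and from 2124 and 2094 to 2819 and 2301 in cho2, with -2.01 ± 0.24 (limma adjusted p = 1.68e-05). PIC2, for a mitochondrial carrier named after its values were seen, gave 1.22 ± 0.25.

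Genes for wall mannoproteins passed in both directions. Of 22 genes on the cell wall list 4 passed downward (18.2%, against 1.44% of all genes) and 0 upward. HPF1 and SRL1, given below, are not on that list. CWP1, for a mannoprotein of the wall, fell from 4185 and 3685 to 2489 and 1365 in WT and from 4566 and 4191 to 642 and 685 in cho2, with an interaction of -1.63 ± 0.32 (limma adjusted p = 0.00456). The mannoprotein genes CWP2 and TIP1 gave -1.39 ± 0.27 and -1.53 ± 0.27, and TIP1 changed by 0.62 in WT and -0.91 in cho2. HPF1, for another wall mannoprotein, rose in WT from 2275 and 2969.6 to 8933 and 10323 and in cho2 stood at 3368 and 3492 at 1 h and 3908 and 2834 at 3 h, with -1.93 ± 0.27 (limma adjusted p = 0.000181). SRL1, also a mannoprotein gene, fell in both strains and less in cho2, from 3876 and 4495 to 241 and 291 in WT and from 2450.2 and 2908 to 469 and 449.9 in cho2, with 1.44 ± 0.25 (limma adjusted p = 0.00139). Also in no list, GIC2, for an effector of the polarity GTPase Cdc42, gave 1.54 ± 0.32.

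Single genes of other lists also passed, beside 2.11% of all genes tested, as did DPA10 and ABM1, which are in no list. PHO84, the high-affinity phosphate transporter and 1 of 17 phosphate genes to pass, rose from 1005 and 767 to 8183 and 6231 in WT and from 1186 and 1317 to 3949 and 2972 in cho2, with -1.57 ± 0.26 (limma adjusted p = 0.00104). DPA10 rose from 1329 and 1511 to 19372 and 12645 in WT and from 9210.1 and 9066 to 31774 and 15984 in cho2, with -2.16 ± 0.34. FAT3, linked to fatty acid uptake and named after its values were seen, gave -1.53 ± 0.28. HO, for the mating-type endonuclease, stood at 98.1 and 61.5 in WT at 1 h and 112 and 79.8 at 3 h, and went from 66.8 and 71.2 to 319 and 219 in cho2. Its interaction was 1.64 ± 0.34 (limma adjusted p = 0.00842), the only call among 10 genes of HO and meiotic entry, and it ended without WT 1 h library 1 (1.31). ABM1 fell in WT, from 145 and 159.8 to 61.6 and 59.8, and stood at 88.7 and 94.2 at 1 h and 103 and 87.8 at 3 h in cho2, where both times overlap, with 1.36 ± 0.34, and its call ended without WT 1 h library 1 (1.44), cho2 1 h library 1 (1.32), WT 1 h library 2 (1.29), WT 3 h library 2 (1.34) or cho2 1 h library 2 (1.41). OYE2, for an NADPH oxidoreductase, gave -1.42 ± 0.26, the only call among 16 thioredoxin and peroxiredoxin genes.

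Of 25 general stress genes 3 passed downward (12%, against 1.44% of all genes). These were the Hsp70 gene SSA3 with -1.21 ± 0.24, the surface protein gene SPI1 with -1.05 ± 0.24 and the repressor gene XBP1 with -1.06 ± 0.28. SSA3 rose in both strains, by 2.05 in WT and 0.84 in cho2. The call of SPI1 ended without WT 1 h library 1 (-0.92), cho2 1 h library 1 (-1.10), WT 3 h library 2 (-1.03) or cho2 1 h library 2 (-0.997). That of XBP1 ended without WT 1 h library 1 (-0.72), WT 3 h library 1 (-1.10), cho2 1 h library 1 (-1.13), cho2 3 h library 1 (-0.95), WT 3 h library 2 (-1.01), cho2 1 h library 2 (-0.99) or cho2 3 h library 2 (-1.17), and with TMM scaling (adjusted p = 0.0751). Upward calls came from HTB2, for histone H2B, with 1.06 ± 0.25, and from IZH4 with 1.46 ± 0.37. They were 1 of 11 histone genes and 1 of 11 zinc genes (9.09% each, against 0.672% of all genes). The pheromone receptor gene STE2, a MAT a marker, also passed upward with 0.94 ± 0.24. The call of HTB2 ended without WT 1 h library 1 (1.03), cho2 1 h library 1 (1.07), WT 1 h library 2 (1.09), WT 3 h library 2 (0.83) or cho2 1 h library 2 (1.05). That of IZH4 ended without WT 1 h library 1 (1.29), cho2 3 h library 1 (1.44), WT 3 h library 2 (1.26), cho2 1 h library 2 (1.26) or cho2 3 h library 2 (1.49). That of STE2 ended without WT 1 h library 1 (0.82), WT 3 h library 1 (0.98), cho2 1 h library 1 (0.99), WT 3 h library 2 (0.91) or cho2 1 h library 2 (0.90).

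Genes that write or remove histone methylation, named in the title of the series, gave 0 limma calls in 16, against 2.11% of all genes. An unadjusted p under 0.05 was found for 1, edgeR with the deposited scaling called 0, and 1 passed upward in DESeq2 and in limma with TMM scaling. The lysine methyltransferase genes SET1, SET2 and DOT1 gave interactions of -0.01 ± 0.26, 0.23 ± 0.28 and -0.14 ± 0.29, and the demethylase gene JHD2 -0.19 ± 0.29. SET1 was read at 632 and 721 in WT at 1 h and 512 and 598 at 3 h, and at 689.8 and 616 at 1 h and 627 and 453 at 3 h in cho2, ranges that overlap at both times. Of the 14 genes of the phosphatase PP2A family 0 passed in limma, in edgeR with the deposited scaling or in DESeq2, and 0 had an unadjusted p under 0.05. PPM1, for the methyltransferase of the PP2A catalytic subunit, gave 0.38 ± 0.26 (limma adjusted p = 0.577). Of 12 genes of cytokinesis and daughter separation 0 passed limma, although 11 were negative with a median of -0.63, 7 had an unadjusted p under 0.05, 0 passed in edgeR with the deposited scaling and 7 in DESeq2.

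Calls were also counted by gene list. Of 50 lists, 12 had calls upward only, 17 downward only, 1 had both and 20 had none. A list with a single call, such as the proteasome or histone list, can only have calls on 1 side. Many of the lists are of this kind, so these counts do not show that members changed alike. Lists can also share a gene, as with MUP1. Together the lists held 1036 of the 6546 genes tested and 69 of the 138 called genes, and the other 69 were in no list. The members and lists were chosen with earlier results of these data known, so the counts describe these genes and are no independent evidence.

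**Figure D3:**
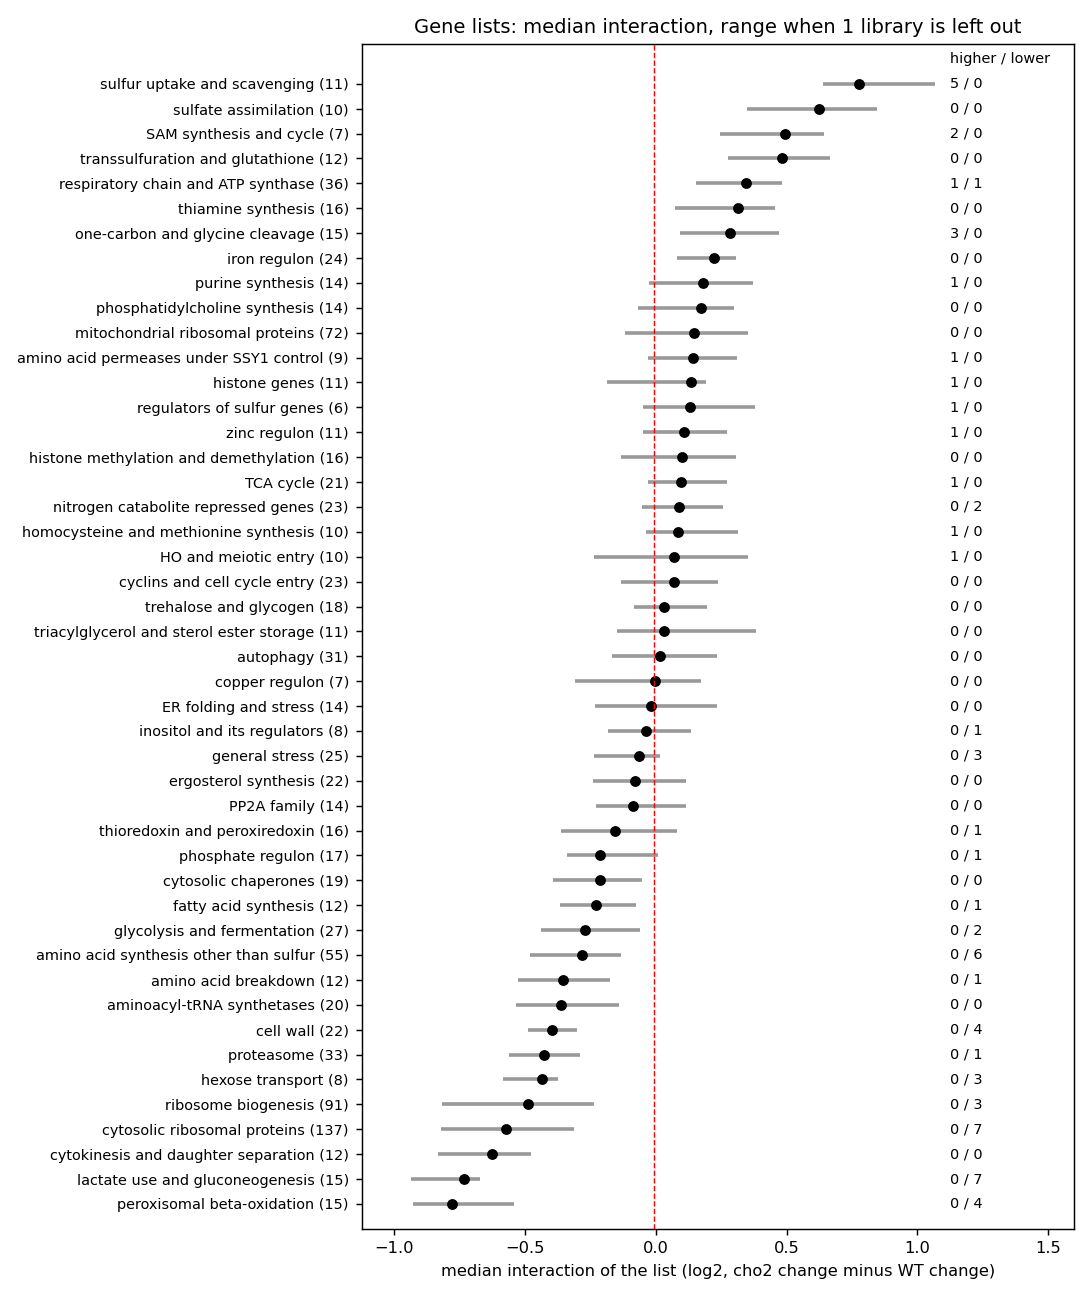
Median interaction (log2, cho2 change minus WT change) of 46 lists, those with at least 6 genes tested other than the mating-type markers, with the number tested in brackets; bars span the medians when 1 library is left out, the dashed line is the median of all genes (-0.01), and the right column counts genes called higher and lower. Sulfur uptake and scavenging lies highest at 0.78 and peroxisomal beta-oxidation lowest at -0.78. The median of all genes itself spans -0.20 to 0.18 when 1 library is left out.

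How many genes passed, and in which direction, depended on single libraries and on scaling. Without cho2 3 h library 2, the one whose scaling stands apart, 289 genes passed and 68.9% of them were above 0, while without cho2 3 h library 1 438 genes passed and 12.1% were above 0, against 31.9% of the 138. Without cho2 1 h library 1 or 2, 66 and 53 genes passed, each of them among the 138. Quantile normalization gave 308 calls with 47.7% above 0, and leaving out WT 3 h library 1 gave 137 with 52.6%. TMM scaling gave 322 calls with 38.2% above 0, 129 of them among the 138. With TMM scaling and without cho2 3 h library 2, an alternative added after the data were seen, 238 genes passed and 33.2% were above 0. Under all 21 alternatives 44 genes kept their call and sign, 13 above 0 and 31 below, among them FDH1, FBP1, INO1, ADH2, LYS9 and POT1 below 0 and SHM2, GCV1, GCV2, YCT1, SOA1, MUP1 and STR3 above.

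Other settings also ended calls of genes named in the text. Without a filter these were MUP3, STE2, UTH1, HO, CWP1, ADE17, HTB2, NSR1, CTA1, MET31, SAM1, CAR2, GLN1, RPP2A, RPP0, TES1, NDE2, IZH4, XBP1, SAM3, NOP58 and QCR8 (adjusted p = 0.0508 to 0.147). Quantile normalization ended those of CWP2, RPP0, IZH4, CTA1, QCR8, TES1 and XBP1 (adjusted p = 0.0555 to 0.0967), median centring those of SAM3, XBP1 and QCR8 (adjusted p = 0.0737 to 0.100), and a fit of the 8 SL libraries alone those of UTH1, RPP0, STE2, LYS21 and NPA3 (adjusted p = 0.0509 to 0.0893). In edgeR the calls lost were TES1, NDE2, RPP0, LYS21, QCR8, NOP58 and XBP1 (adjusted p = 0.0504 to 0.0651) with the deposited scaling and IZH4, RPP2A, TES1, RPP0, SAM3, XBP1 and QCR8 (adjusted p = 0.0509 to 0.106) with TMM. Without both 3 h libraries numbered 2 they were FAT3, UTH1, CAR2, NOP58, XBP1, CTA1, NDE2, IZH4, SAM3 and QCR8 (adjusted p = 0.0524 to 0.184), and with TMM scaling and without cho2 3 h library 2 MUP3, NOP58, IZH4, SAM3 and QCR8 (adjusted p = 0.0684 to 0.254).

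**Figure D4:**
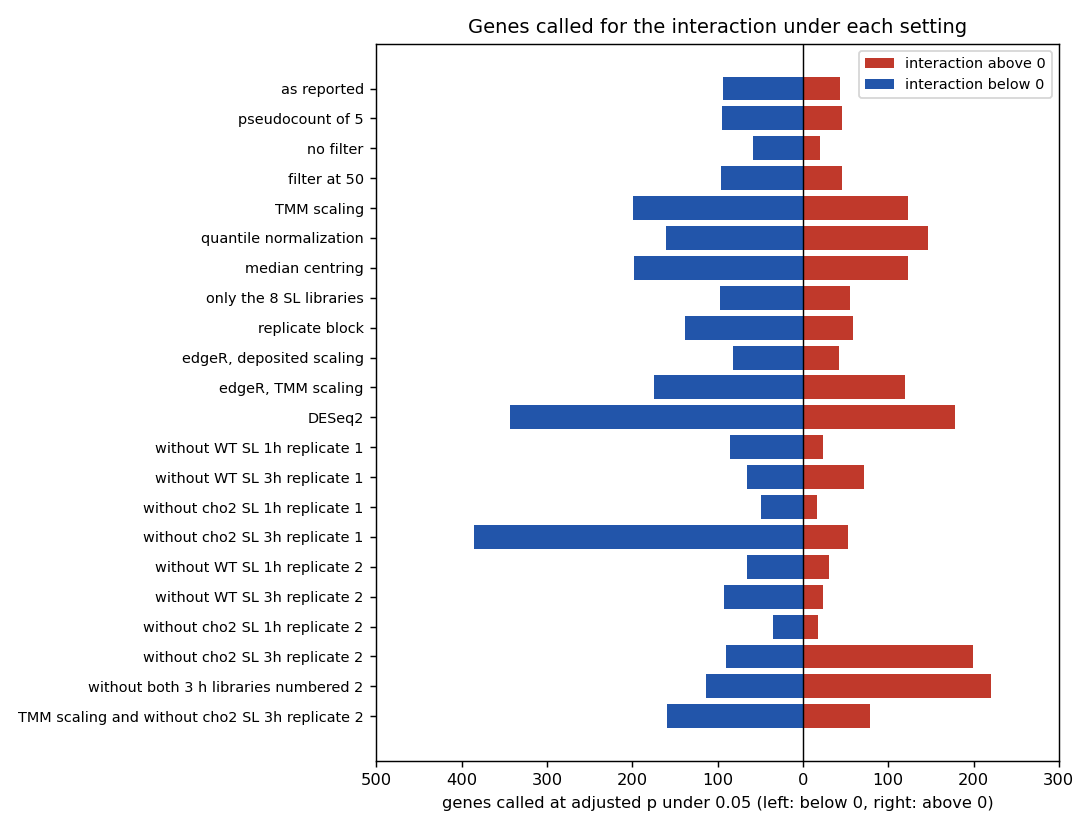
Number of genes called for the interaction as reported and under each of 21 alternatives, with genes above 0 drawn to the right and genes below 0 to the left. The reported 44 and 94 become 53 and 385 without cho2 3 h library 1 and 199 and 90 without the second.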

How the data were processed

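Poly-A RNA was sequenced from stranded libraries made with a TruSeq kit, per the labels' protocols. The authors deposited 1 table of signal values, normalised read counts per gene. Per the submitters' processing notes, Bowtie and DESeq were used and the build was sacCer2. Which versions, counter and annotation were used, and whether strand was respected, is not given in the sources used here. Throughout the deposited columns, 100% of the values, as deposited by the authors, were whole multiples of 1 step within 0.01 reads, and these reads served edgeR and DESeq2 as alternatives. Of the 6685 genes 6006 matched a reference table of release R64, used for names, overlaps and copies (blastn 2.17.0, at least 95% identity over at least 50% of the length), and no coordinates are given because the builds differ.

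All 12 libraries entered 1 limma fit (limma-trend, limma 3.58.1, R 4.3.3) on log2(value + 1), with 6 group means and 6 residual degrees of freedom. Contrasts were the interaction, each strain's change and the strain difference at each time, each adjusted over the 6546 genes. Genes were named by this rule: the 12 largest interactions in each direction that passed, had a group mean of at least 50 in SL, were separated in all pairings and had a standard symbol; up to 3 passing members with the smallest adjusted p in each of 50 lists; and 22 genes of the study's question. Genes outside that rule were named with their values known, and the text says where. The members and lists were chosen with earlier results of these data known. Alternatives were a pseudocount of 5, no filter, a filter at 50, TMM scaling (edgeR 4.0.16), median centring, quantile normalization, the 8 SL libraries alone, a replicate block, edgeR, DESeq2 1.42.0, and libraries left out. The procedure was tested on simulated data. Figures were drawn with matplotlib 3.10.9.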

Additional observations from a re-analysis of the deposited data

Results flagged for a closer look

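Of the 6546 genes tested 138 (2.11%) had a called interaction. In 15 of these 138 the strains changed in opposite directions, each strain's own change also passing limma. In 12 of them WT rose and cho2 fell. Their interactions were -3.60 for FDH1, -3.57 for YPL276W, -3.54 for FDH2, -2.01 for ADH2, -1.53 for TIP1, -1.38 for ALP1, -1.26 for SUC2, -1.23 for RPS15, -1.20 for FMP52, -0.96 for RPP0, -0.92 for UTH1 and -0.91 for NPA3. ALP1 encodes a basic amino acid transporter, and UTH1 a protein of mitochondria and cell wall. In 3 of them WT fell and cho2 rose, namely GCV2 with 1.23, ADE17 with 1.35 and SHM2 with 2.72.

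The opposite calls depend on where 0 lies. With TMM scaling 10 of the 15 kept a call in each strain and both directions. SUC2, NPA3, UTH1 and RPP0 then had no call in cho2, and ADE17 none in WT. ALP1, FMP52, NPA3, UTH1 and RPP0 were named after their values were seen. FDH1, FDH2 and YPL276W share sequence and count as 1 observation. When single libraries were left out, the calls of NPA3 and UTH1 held in 2 of 8 fits each, with adjusted p up to 0.228 and 0.343, and ended on the 8 SL libraries alone (adjusted p = 0.0893 and 0.0509). The call of ALP1 ended without WT 1 h library 1 (-1.19) or cho2 1 h library 2 (-1.26).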

How the results depend on the processing

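The 138 calls for the interaction (44 above 0 and 94 below) stayed within 1.5 times their count with a pseudocount of 5, a filter at 50, the 8 SL libraries alone and edgeR with the deposited scaling. They became 78 (20 and 58) without a filter, 322 (123 and 199) with TMM scaling, 308 (147 and 161) with quantile normalization, 321 (123 and 198) with median centring, 295 (120 and 175) with TMM in edgeR and 521 (178 and 343) in DESeq2. Leaving out single libraries gave 53 to 438 calls, 17 to 199 above 0 and 35 to 385 below. The calls between times ranged from 1355 to 3154 in WT and 1221 to 2998 in cho2. Without both 3 h libraries numbered 2 there were 333 calls (220 above 0), and with TMM scaling and without cho2 3 h library 2, added after the data were seen, 238 (79 and 159). The cause was not tested. A replicate block gave 197 calls (59 and 138), all 138 among them, and 20 rather than 7 ribosomal protein genes; with 2 numbers per group the pairing is not established, and deviations of same-numbered libraries correlated from -0.14 to 0.42 over 6 pairs of groups.

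Of 102 named genes 83 passed, and none of these changed sign under any alternative. Signs turned in 8 genes that did not pass. With single libraries left out CHO2 ranged from -0.105 to 0.715, MET3 from -0.0229 to 0.442, MET17 from -0.0940 to 0.312, SET1 from -0.239 to 0.229, SET2 from -0.0339 to 0.493, DOT1 from -0.450 to 0.167, JHD2 from -0.561 to 0.184 and GAP1 from -0.105 to 0.218. Without both 3 h libraries numbered 2, CHO2 gave -0.11, SET1 0.34, DOT1 0.21 and JHD2 0.18. With TMM scaling and without cho2 3 h library 2, CHO2 gave -0.15, SET1 0.0297 and GAP1 -0.0349. SET1 also gave 0.0173 in edgeR with the deposited scaling, 0.00756 with TMM in edgeR and 0.00603 in DESeq2. With 2 libraries per group, the smallest interaction called in the reported limma fit had a size of 0.87, which is no detection limit. DESeq2 called CYS4 at 0.65 and MET5 at 0.67, and limma left a thiamine synthesis gene at 0.97 without a call.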
